A study of Homo sapiens with 60 samples.

Results

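Cells given a water extract of Zizyphi Semen, the dried seed of a jujube, at 500 µg/mL were compared with cells given a water extract of Longan Arillus, the aril of the longan fruit, at the same dose. The 6 libraries, 3 per extract, were chosen from 60 by their titles alone. All came from HepG2, an established human hepatocellular carcinoma line, and were made after 24 h of treatment. The same extracts at 100 and 20 µg/mL, with 3 libraries per dose, and 3 vehicle libraries served as further comparisons. The labels give the vehicle as 0.1% DMSO, whereas the series' design text gives 2%. They give no DMSO percentage for the extract libraries. The libraries of both extracts carry sample codes of set 3 and the vehicle has a code set of its own, whose meaning is not stated. A difference from the vehicle, a difference of solvent, if any, and a difference between sets therefore cannot be told apart. The direct comparison of the extracts is the one within a set. Each treatment is of a single cell line, and an extract is a mixture whose make-up the labels do not give.

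The liver is a main site of cholesterol and fatty acid synthesis, and the transcription factors SREBF1 and SREBF2 switch on the enzymes of both pathways when sterols or insulin signals call for it. Cells sense plant and environmental compounds through the aryl hydrocarbon receptor, whose best known target is CYP1A1, and through NRF2, which switches on enzymes that quench oxidants. ATF4 switches on amino acid synthesis and transport genes when amino acids run short. HepG2 cells retain these pathways, although they differ from normal hepatocytes in growth and in many drug-metabolizing enzymes.

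The Zizyphi libraries held 22.61 to 30.17 M counts and the Longan libraries 26.1 to 32.6 M, of 20.21 to 36.41 M over all 60 libraries. The 10 hepatocyte and HepG2 markers, ALB and AFP among them, summed to 44730 to 47620 CPM (counts scaled to a common library total, here without further factors) in Zizyphi libraries and 46960 to 49230 CPM in Longan libraries. The defining leukocyte markers PTPRC, CD3E and MS4A1, the endothelial markers KDR, TEK and EMCN, the fibroblast markers COL1A2 and DCN, and the cholangiocyte markers KRT7 and CFTR had 0 counts in all 6 libraries. The leukocyte list nevertheless summed to 1138 to 1242 CPM in Zizyphi libraries and 1119 to 1227 CPM in Longan libraries, nearly all of it LYZ. The fibroblast list summed to 69.59 to 73.07 CPM in Zizyphi libraries and 74.57 to 75.79 CPM in Longan libraries, mostly ACTA2 and PDGFRB. That was a lower range in Zizyphi. The endothelial list summed to 3.858 to 5.396 CPM in Zizyphi libraries and 4.682 to 5.153 CPM in Longan libraries, mostly PECAM1. The cholangiocyte list, of which KRT19, SOX9, EPCAM and SPP1 were the members at a level, summed to 1038 to 1079 CPM in Zizyphi libraries and 970.1 to 1037 CPM in Longan libraries, which was a higher range in Zizyphi. Mitochondrially encoded mRNAs took 13.0% ± 1.02 of counts in Zizyphi libraries and 11.9% ± 1.57 in Longan libraries (SD, n = 3 each). 1 vehicle library stood apart in how its counts followed the GC content of genes, with a slope of -1.37, against -0.24 to 0.61 in Zizyphi and -0.38 to 0.32 in Longan libraries. The labels do not say whether replicates were separate cultures, so p-values measure only the spread between libraries of a group, which may be technical. The edgeR fit reported below estimated that spread over all 60 libraries.

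At 500 µg/mL few genes differed between the extracts: 7 of 16517 tested genes (0.0424%) had a Benjamini-Hochberg adjusted p under 0.05 in edgeR's quasi-likelihood test. CYP1A1, UNC93A, TIMP3 and the pseudogene AL445665.1 were higher after Zizyphi (0.0242% of tested genes), and ACSS2, FADS2 and ASNS were lower (0.0182%). The differences were small, between -0.32 and 0.61 on the log2 scale. At an unadjusted p under 0.05 there were 644 genes (3.9%). A gene that missed the threshold is not thereby shown to be alike: the 95% interval of the log2 fold change lay within 2-fold in either direction for 14273 genes (86.5% of the 16505 with a standard error) and within 1.5-fold for 12246 (74.2%). DESeq2 called 15 genes, all 7 of these and HMGCS1, CYP51A1, ELOVL6, SLC7A11, NQO1, NEDD9, ACTA1 and CXXC5, whereas a fit of the 6 libraries alone called none (478 genes at an unadjusted p under 0.05). With each of the 6 libraries left out in turn, ACSS2 and FADS2 remained called in all 6 fits, while 2 to 6 genes were called in all. The plot of all tested genes shows how few stood apart, and the points far to either side are genes with few counts.

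**Figure D1:**
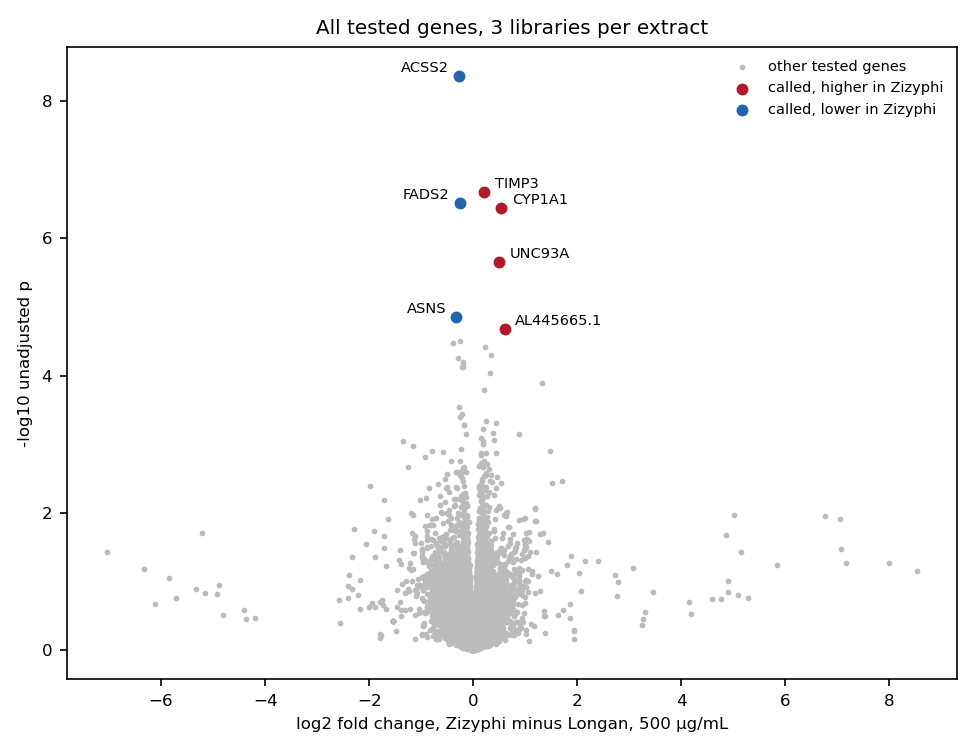
Log2 fold change of Zizyphi Semen minus Longan Arillus at 500 µg/mL (x axis) against -log10 of the unadjusted p (y axis, a log scale) for 16517 tested genes, 3 libraries per extract. The 7 coloured genes, 4 higher and 3 lower in Zizyphi, passed an adjusted p of 0.05.

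CYP1A1 encodes a cytochrome P450 that oxidizes aromatic compounds and is induced through the aryl hydrocarbon receptor. It lies on the minus strand at chr15:74719542-74725610 (GRCh38). CYP1A1 had 13.4, 13.6 and 11.5 CPM in the Zizyphi libraries, against 9.06, 8.29 and 9.10 CPM in the Longan libraries (here and below CPM is scaled by TMM factors). Every Zizyphi library was above every Longan library, and the log2 fold change was 0.54 ± 0.09 (standard error; edgeR adjusted p = 0.00152). The call was lost without Longan replicate 2 (adjusted p = 0.0562) or Zizyphi replicate 2 (adjusted p = 0.0561). At 100 µg/mL the difference was 0.05 and at 20 µg/mL 0.09 on the log2 scale, and neither passed the test (adjusted p 1 for both). Against the vehicle, whose libraries had 7.15, 7.20 and 7.24 CPM, CYP1A1 rose by 0.84 ± 0.10 after Zizyphi (adjusted p = 3.38e-07) and stood 0.29 ± 0.10 higher after Longan (adjusted p = 0.1096). Zizyphi at 500 µg/mL ranked 5 and Longan 8 of the 20 groups of the series from the highest mean CPM down.

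Of the 10 genes on the list of aryl hydrocarbon receptor targets, 6 passed the filter on low counts, and CYP1A1 alone was called in edgeR's reported fit (DESeq2 also called NQO1). ALDH3A1, an aldehyde dehydrogenase, averaged 1.056 CPM after Zizyphi and 0.73 CPM after Longan, with a log2 fold change of 0.52 ± 0.27 (unadjusted p = 0.063, adjusted p = 1). TIPARP and AHRR, which damp the receptor, differed by -0.03 ± 0.08 and 0.09 ± 0.24. NQO1, which the receptor shares with NRF2, stood on the other side at -0.20 ± 0.04. The list's median was 0.03, beside 0.00 over all tested genes.

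The receptor binds a short core, and the promoter of CYP1A1 is shown because it is the target that differed. In the 250 bases before its RefSeq start (GRCh38.p14, chr15:74725529-74725778, minus strand, read 5′ to 3′) the core GCGTG, searched on both strands and in capitals, occurred once. The same 5 letters occurred in 32.2% of 35116 windows of this length before RefSeq starts, so a match is common. The letters alone do not mark a site of the receptor, and whether it binds here was not tested. Sequence further upstream was not searched.
CYP1A1: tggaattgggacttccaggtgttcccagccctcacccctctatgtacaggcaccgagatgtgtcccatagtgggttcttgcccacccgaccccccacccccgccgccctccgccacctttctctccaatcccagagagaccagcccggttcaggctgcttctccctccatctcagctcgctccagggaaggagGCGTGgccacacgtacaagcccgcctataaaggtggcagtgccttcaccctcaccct

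Acetate and lipid enzymes stood on the lower side after Zizyphi. ACSS2, which turns free acetate into acetyl-CoA for lipid synthesis (plus strand, chr20:34872146-34927962), had 114.6, 113.5 and 113.1 CPM in the Zizyphi libraries, against 137.2, 132.4 and 141.5 CPM in the Longan libraries. The groups did not overlap, and ACSS2 fell by 0.27 ± 0.04 on the log2 scale (adjusted p = 7.17e-05), with the smallest p of all genes. FADS2, the delta-6 desaturase of polyunsaturated fatty acid synthesis (plus strand, chr11:61792980-61867354), had 271.2, 264.6 and 275.2 CPM after Zizyphi, against 325.9, 319.9 and 321.5 CPM after Longan. All 3 Zizyphi libraries lay below all 3 Longan libraries, and FADS2 fell by 0.25 ± 0.04 (adjusted p = 0.00152). FADS2 shares exon sequence with FEN1 on its own strand and lies across from FADS1, and the strand setting of the counting is not given in the sources used here, so its counts are uncertain in their source. At 100 and 20 µg/mL ACSS2 differed by -0.05 and 0.01 and FADS2 by -0.07 and -0.02, none past the test.

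All 14 tested members of the 16-gene fatty acid synthesis list had a log2 fold change below 0. ACSS2 and FADS2 were called in edgeR's reported fit (DESeq2 also called ELOVL6), 9 members had an unadjusted p under 0.05 on the lower side (1.88% of all tested genes did), and in 10 every Zizyphi library was below every Longan library (4% of tested genes). The median was -0.14, beside 0.00 over all tested genes. ELOVL6, which elongates palmitate, had 47.8, 49.3 and 47.6 CPM after Zizyphi, against 54.3, 54.6 and 56.5 CPM after Longan, with a difference of -0.19 ± 0.04 that missed the threshold (adjusted p = 0.0789). SCD, which makes monounsaturated fatty acids, had 2200, 2111 and 2252 CPM after Zizyphi, against 2585, 2454 and 2385 CPM after Longan (log2 fold change -0.18 ± 0.06, adjusted p = 0.743). FASN, the fatty acid synthase, differed by -0.12 ± 0.11 with overlapping groups, and 1 library of each extract was low: FASN had 2687, 2168 and 2651 CPM after Zizyphi and 2946, 2891 and 2315 CPM after Longan. Summed over the list, the level was 7022, 6427 and 7085 CPM in the Zizyphi libraries and 7944, 7724 and 7076 CPM in the Longan libraries, so that the sums overlapped by 1 library.

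In the cholesterol list, 22 of 25 tested members lay below 0 and none was called in edgeR's reported fit, whereas DESeq2 called HMGCS1 and CYP51A1. An unadjusted p under 0.05 was found for 12 on the lower side (1.88% of all tested genes) and none on the higher side (2.02%). In 9 every Zizyphi library was below every Longan library (4% of tested genes), and the median was -0.13. HMGCS1, the enzyme at the entry of the mevalonate pathway, had 279.4, 291.6 and 264.3 CPM after Zizyphi, against 333.3, 323.6 and 333.9 CPM after Longan, a difference of -0.25 ± 0.05 that just missed the threshold (adjusted p = 0.0623). CYP51A1, the lanosterol demethylase, differed by -0.21 ± 0.05 (adjusted p = 0.0789). The summed level of the list was 5139, 5106 and 5154 CPM in the Zizyphi libraries, below the 5673, 5550 and 5515 CPM of the Longan libraries and the 5524 to 5696 CPM of the vehicle. At 100 µg/mL its mean was 5676 ± 168 CPM after Zizyphi and 5660 ± 108 CPM after Longan (SD, n = 3 each).

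**Figure D2:**
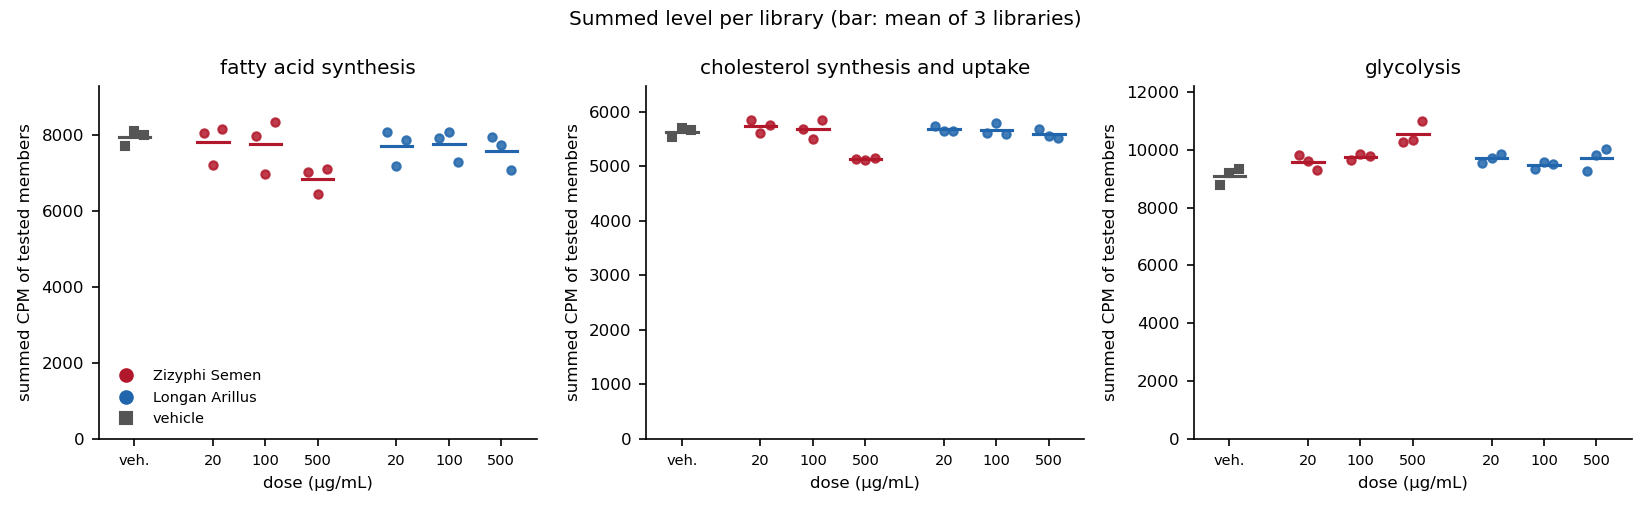
Summed CPM (y axis) of the tested members of the fatty acid, cholesterol and glycolysis lists in each library by dose (x axis, µg/mL); points are libraries, bars the mean of 3. The cholesterol sum at 500 µg/mL of Zizyphi, 5106 to 5154 CPM, lies below every other group plotted.

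ASNS, which makes asparagine and is a main target of ATF4 (minus strand, chr7:97852118-97872542), was also lower after Zizyphi, and it was the one of the 7 genes also called at a further dose. At 500 µg/mL it had 21.8, 23.7 and 24.7 CPM in the Zizyphi libraries, against 25.9, 29.2 and 32.5 CPM in the Longan libraries. The groups did not overlap, although the Longan libraries spread more widely, and ASNS fell by 0.32 ± 0.07 (adjusted p = 0.0394). In the libraries at 100 µg/mL, which were not part of that comparison, it had 22.5, 23.1 and 22.4 CPM after Zizyphi and 27.0, 29.6 and 31.0 CPM after Longan (log2 fold change -0.37 ± 0.07, adjusted p = 0.0271). It was the single gene called there (0.00605% of tested genes). At 20 µg/mL the difference was -0.01 ± 0.06. The call at 500 µg/mL was lost without Longan replicate 2 or 3 or any Zizyphi replicate (adjusted p 0.00407 to 0.529 over the 6 fits), and the call at 100 µg/mL was kept only without Longan replicate 1. The annotation places AC079781.5 over ASNS on the same strand.

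Of 21 tested members of the 22-gene ATF4 list, 12 lay below 0, and ASNS alone was called in edgeR's reported fit. An unadjusted p under 0.05 on the lower side was found for 5 (1.88% of all tested genes), and the list's median was -0.03. SLC7A11, the cystine importer that both ATF4 and NRF2 control, had 38.1, 38.6 and 40.2 CPM after Zizyphi, against 54.2, 49.9 and 49.5 CPM after Longan (-0.39 ± 0.09, edgeR adjusted p = 0.0623), and DESeq2 called it. The serine and folate enzymes PSAT1 and MTHFD2 differed by -0.11 ± 0.05 and -0.12 ± 0.05 (adjusted p of 1 for both). ATF4 itself differed by 0.02 ± 0.09 and TRIB3, a pseudokinase it induces, by -0.11 ± 0.06.

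The window before the first of 2 RefSeq starts of ASNS (GRCh38.p14, chr7:97872409-97872658, minus strand, read 5′ to 3′) is shown because ASNS differed at both higher doses. It holds the C/EBP-ATF response element, searched as TGATGNAA on both strands and in capitals, which 3.14% of the 35116 windows held. The window before the second RefSeq start had no match. The sterol response element, searched as TCACNCCAC on both strands (0.883% of windows), had no match in the 250 bases before either RefSeq start of ACSS2 or of FADS2.
ASNS: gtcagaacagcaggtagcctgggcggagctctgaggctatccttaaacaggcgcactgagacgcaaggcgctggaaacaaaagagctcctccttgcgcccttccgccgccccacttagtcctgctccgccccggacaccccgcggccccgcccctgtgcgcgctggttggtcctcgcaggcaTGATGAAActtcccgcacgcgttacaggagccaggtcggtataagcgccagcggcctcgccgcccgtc

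TIMP3, an inhibitor of matrix metalloproteinases (plus strand, chr22:32801701-32863043), had 215.6, 206.1 and 214.9 CPM in the Zizyphi libraries, against 185.5, 181.4 and 182.8 CPM in the Longan libraries. No library of one extract reached the range of the other, and TIMP3 rose by 0.21 ± 0.03 (adjusted p = 0.00152). UNC93A, a membrane protein of the solute carrier type (chr6:167271169-167316019), had 6.61, 7.63 and 7.71 CPM after Zizyphi, against 5.00, 5.05 and 5.53 CPM after Longan, and rose by 0.49 ± 0.09 (adjusted p = 0.00746). AL445665.1, a transcribed unprocessed pseudogene (chr9:64637845-64652556), had 7.47, 6.65 and 6.19 CPM after Zizyphi, against 4.24, 4.67 and 4.42 CPM after Longan. Its call, 0.61 ± 0.13, stood at the threshold (adjusted p = 0.04998), and as a pseudogene it may share reads with near-identical copies. With a library left out, the call of AL445665.1 was lost in all 6 fits (adjusted p 0.0672 to 0.396). That of UNC93A was kept without Zizyphi replicate 1 or Longan replicate 3 and lost in the other 4 fits (adjusted p up to 0.130). That of TIMP3 was lost without Longan replicate 2 (adjusted p = 0.0562), and also with no filter on low counts (adjusted p = 0.257). At 100 µg/mL these 3 genes differed by 0.02, 0.20 and -0.02 and at 20 µg/mL by -0.02, 0.12 and 0.03 on the log2 scale, none past the test. The UNC93A libraries nevertheless did not overlap there either: at 100 µg/mL they had 5.68, 5.82 and 5.52 CPM after Zizyphi, against 5.204, 4.34 and 5.23 CPM after Longan, and at 20 µg/mL 6.35, 5.85 and 5.73 CPM after Zizyphi, against 5.28, 5.63 and 5.61 CPM after Longan.

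**Figure D3:**
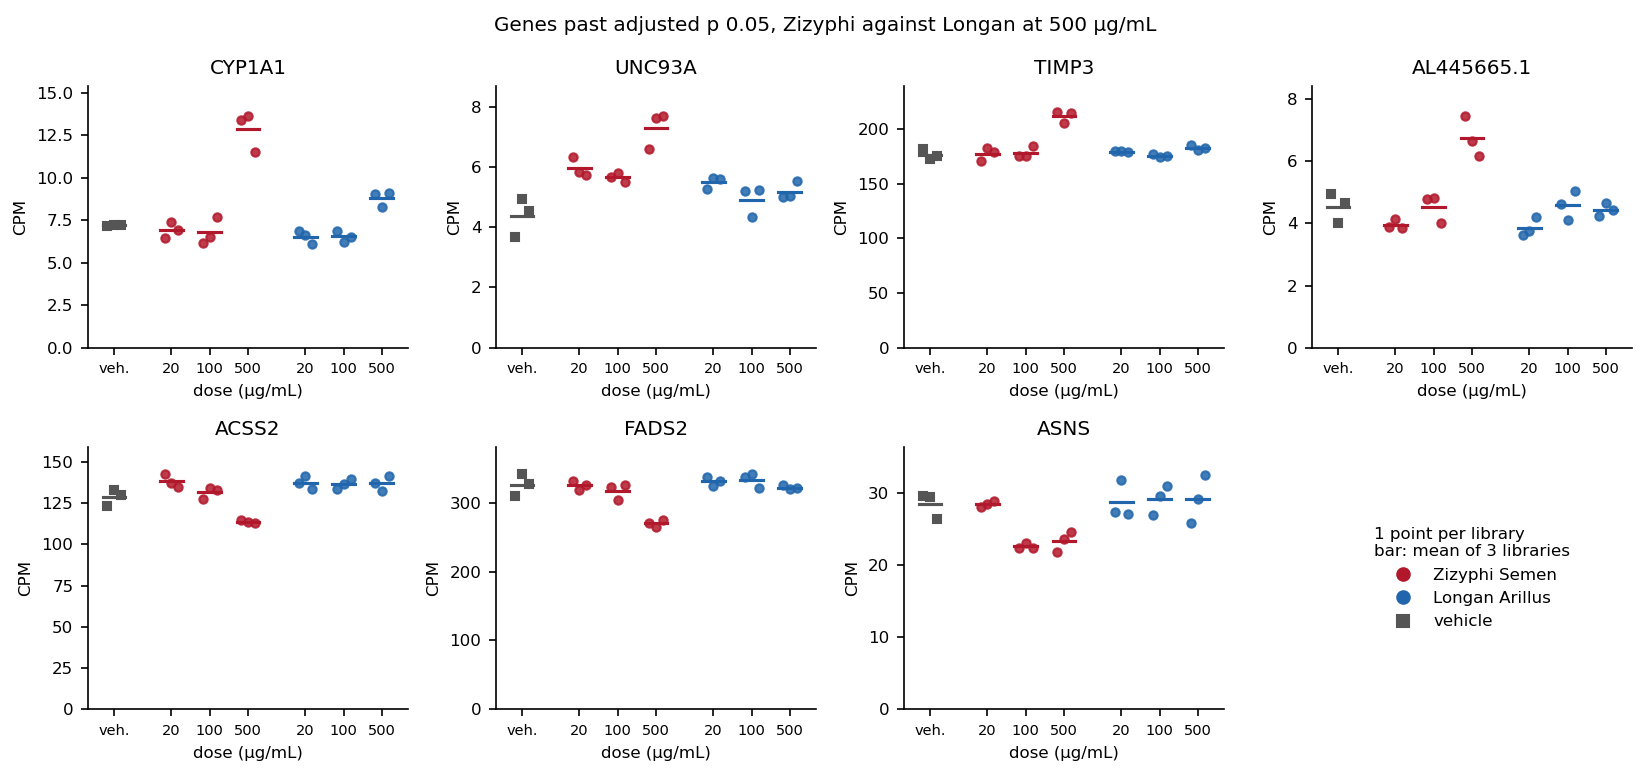
CPM (y axis) of the 7 called genes in each library by extract and dose (x axis, µg/mL) and in the vehicle (veh.); points are libraries, bars the mean of 3. In each panel the Zizyphi libraries at 500 µg/mL lie apart from the Longan libraries at 500 µg/mL. The extracts also lie apart for ASNS at 100 µg/mL and for UNC93A at 100 and 20 µg/mL, where UNC93A did not pass the test.

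Whether the step from 20 to 500 µg/mL differed between the extracts was tested with an interaction term, and no gene passed in edgeR (727 genes, 4.4%, at an unadjusted p under 0.05; DESeq2 called 3). Among the 7 genes called at 500 µg/mL, ACSS2 came nearest at -0.28 ± 0.05 (adjusted p = 0.0524). TIMP3 followed at 0.23 ± 0.05 (adjusted p = 0.161) and FADS2 at -0.23 ± 0.06 (adjusted p = 0.662). HMGCS1 and AKR1B10, which are not among the 7, had interactions of -0.32 ± 0.08 each (edgeR adjusted p = 0.422 for both), nearer than FADS2. CYP1A1 had an interaction of 0.46 ± 0.13 and ASNS of -0.31 ± 0.09, with adjusted p of 0.862 and 0.880. At 20 µg/mL no gene was called between the extracts (367 genes, 2.22%, at an unadjusted p under 0.05), and at 100 µg/mL ASNS was the only call (358 genes, 2.17%).

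NRF2 targets lay lower after Zizyphi than after Longan in 20 of 23 tested members of a 24-gene list. None was called in edgeR's reported fit, and 6 had an unadjusted p under 0.05 on the lower side (1.88% of all tested genes). DESeq2 called NQO1 (adjusted p = 0.00708) and SLC7A11. NQO1, a quinone reductase, had 371.7, 376.4 and 352.8 CPM after Zizyphi, against 425.1, 400.4 and 435.2 CPM after Longan (-0.20 ± 0.04, edgeR adjusted p = 0.0789). HMOX1, the heme oxygenase, differed by -0.20 ± 0.07 (adjusted p = 0.722) and AKR1B10, an aldo-keto reductase, by -0.21 ± 0.05 (adjusted p = 0.283), both with groups that did not overlap. GCLM, the regulatory subunit of the first glutathione enzyme, differed by -0.26 ± 0.08, whereas the catalytic subunit GCLC differed by -0.04 ± 0.06. The list's median was -0.04.

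Metallothioneins, the small zinc- and copper-binding proteins, share a list of 11 genes with other zinc-response genes. The median of that list was -0.31 over its 10 tested genes. None was called in the reported fit, and 9 lay below 0. In 5 every Zizyphi library was below every Longan library (4% of tested genes), and in 1 above (4.71%). With no filter on low counts edgeR called 88 of 35717 genes, 5 of them on this list (MT1E, MT1F, MT1G, MT1X and MT2A). MT1X had an edgeR adjusted p of 0.00417 there. That setting also called 85 genes at 20 µg/mL, where the reported fit called none. MT1X had 19.8, 20.8 and 22.6 CPM after Zizyphi, against 23.1, 28.6 and 29.7 CPM after Longan (-0.36 ± 0.13, adjusted p = 0.939). MT1G had 28.8, 34.7 and 30.7 CPM after Zizyphi, against 37.3, 45.7 and 52.0 CPM after Longan (-0.52 ± 0.21, adjusted p = 1). The Longan libraries differed widely among themselves, and MT genes are near-identical copies whose reads the counting could split.

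Glycolysis genes lay on the higher side, 16 of 18 tested members, with none called, 7 at an unadjusted p under 0.05 on that side (2.02% of tested genes), 6 with every Zizyphi library above every Longan library (4.71% of tested genes) and a median of 0.10. ALDOA, the muscle-type aldolase, had 1428, 1432 and 1586 CPM after Zizyphi, against 1241, 1366 and 1338 CPM after Longan (0.17 ± 0.06, adjusted p = 0.775). LDHA, which makes lactate, differed by 0.16 ± 0.06, and SLC2A1, the basal glucose transporter, by 0.03 ± 0.04. Of 18 hypoxia targets, 15 lay above 0 with a median of 0.06 and none was called. In the TGF-beta and YAP list, 5 members had an unadjusted p under 0.05 on the higher side (2.02% of tested genes). The list had 15 of 17 tested members above 0, none called and a median of 0.11. TAGLN, an actin-binding protein that edgeR called with no filter on low counts, led it with 44.2, 45.1 and 50.1 CPM after Zizyphi, against 30.6, 36.8 and 35.9 CPM after Longan (0.43 ± 0.11, adjusted p = 0.338). Of 12 tested NF-kB and cytokine genes, 10 lay above 0 and none was called, with a median of 0.13. Each of the 13 mitochondrially encoded mRNAs and each of 21 ribosomal protein mRNAs also lay above 0 (medians 0.14 and 0.07). None had an unadjusted p under 0.05 in either list. MT-ND1 and MT-ND2 were called with no filter on low counts, a setting that called 88 of 35717 genes. The part of library make-up in these lists was not tested.

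**Figure D4:**
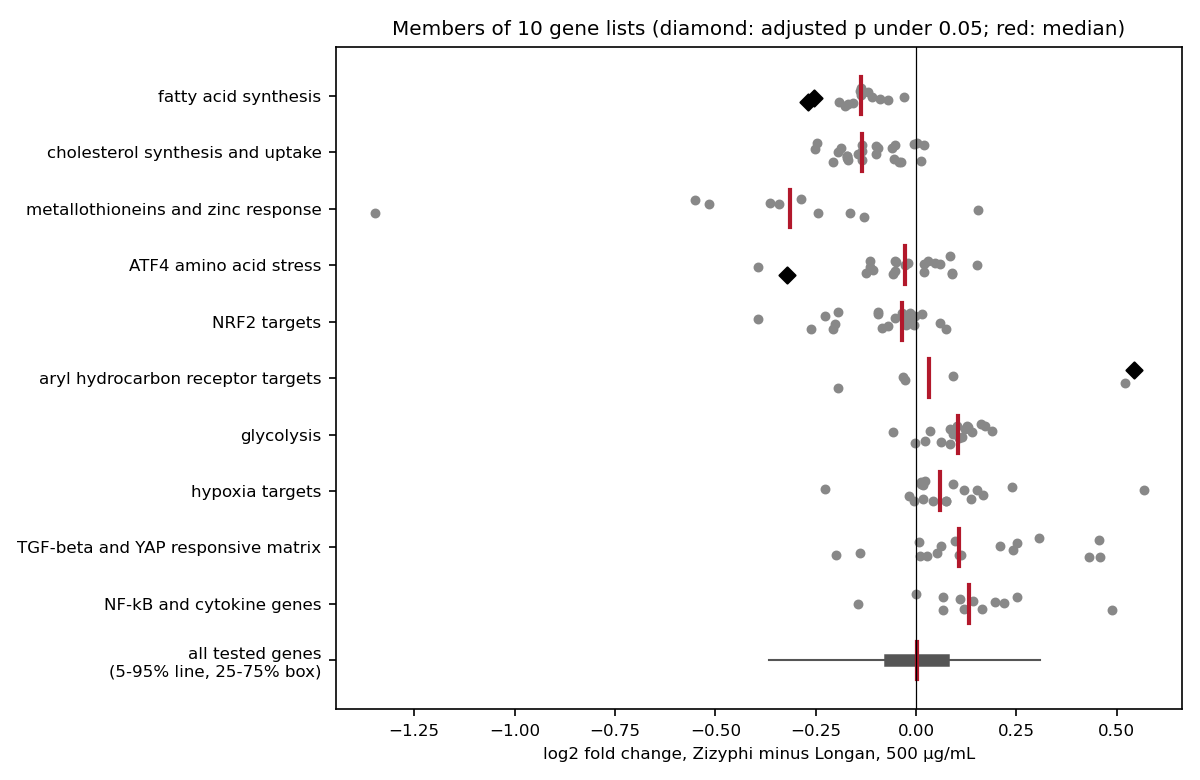
Log2 fold change of Zizyphi minus Longan at 500 µg/mL (x axis) of the tested members of 10 gene lists; each point is a gene, diamonds passed an adjusted p of 0.05, and red lines are medians. Fatty acid genes all lie below 0 with a median of -0.14, and the bottom line gives the spread of all tested genes.

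Of the remaining liver genes and single markers named by rule, none was called in edgeR's reported fit. ALB, the main plasma protein, averaged 7897 ± 929 CPM after Zizyphi and 7807 ± 784 CPM after Longan (SD, n = 3 each), a log2 fold change of 0.02 with a 95% interval of -0.16 to 0.19. MKI67, a marker of cycling cells, differed by -0.03 (interval -0.19 to 0.13) and CDKN1A, the cell cycle inhibitor p21, by 0.03 (interval -0.14 to 0.19). IGFBP1, an insulin-suppressed binding protein, had 50.5, 66.1 and 71.0 CPM after Zizyphi, against 32.5, 44.2 and 52.9 CPM after Longan, and the groups overlapped (0.53 ± 0.17, adjusted p = 0.743; called with no filter on low counts). G6PC1, which releases glucose, had 3.35, 2.93 and 2.47 CPM after Zizyphi, against 2.30, 2.24 and 2.05 CPM after Longan (0.41 ± 0.21, adjusted p = 1). TXNIP, a glucose-responsive gene, differed by 0.17 ± 0.09.

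Set against the same 3 vehicle libraries, 730 genes (4.42%) were called after Zizyphi, 422 higher (2.55%) and 308 lower (1.86%), and 291 (1.76%) after Longan, 152 higher (0.92%) and 139 lower (0.842%). Without the vehicle library that stood apart, the counts were 110 higher and 81 lower after Zizyphi and 23 higher and 16 lower after Longan. With any other library of a comparison left out the totals were 341 to 687 after Zizyphi and 90 to 232 after Longan. The 7 genes that differed between the extracts were all called after Zizyphi and none after Longan. That count rests on the Zizyphi libraries that chose the genes, and ASNS was no longer called without that vehicle library (adjusted p = 0.103). ACSS2 fell by 0.18 ± 0.04 after Zizyphi and differed by 0.09 ± 0.04 after Longan (adjusted p = 0.00247 and 0.230). FADS2 fell by 0.27 ± 0.04 after Zizyphi and differed by -0.02 ± 0.04 after Longan, and TIMP3 rose by 0.26 ± 0.03 after Zizyphi and differed by 0.05 ± 0.03 after Longan.

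Counts of list members called against the vehicle are set side by side, since both extracts share those libraries. Of all tested genes, 1.86% were called lower and 2.55% higher after Zizyphi, against 0.842% and 0.92% after Longan. Without the vehicle library that stood apart, 81 of 16769 were called lower and 110 higher after Zizyphi, against 16 and 23 after Longan. In fatty acid synthesis 8 of 14 tested members fell after Zizyphi and 0 after Longan (5 and 0 without the vehicle library that stood apart), and in the cholesterol list 6 of 25 fell after Zizyphi and 0 after Longan (2 and 0 without it). HMGCS1 fell by 0.41 ± 0.05 after Zizyphi (adjusted p = 1.52e-06) and differed by -0.17 ± 0.05 after Longan (adjusted p = 0.0865). In the NRF2 list 4 of 23 rose after Zizyphi and 8 after Longan (2 and 4 without that library): NQO1 was 0.11 ± 0.04 higher after Zizyphi (adjusted p = 0.158) and rose by 0.30 ± 0.04 after Longan (adjusted p = 8.88e-05), and AKR1B10 rose by 0.20 ± 0.06 after Zizyphi and by 0.41 ± 0.05 after Longan. In glycolysis 7 of 18 rose after Zizyphi and 3 after Longan (5 and 0 without it), and in the hypoxia list 9 and 2 of 18 (6 and 0 without it). IGFBP1 was higher than in the vehicle after both, by 1.39 ± 0.18 after Zizyphi and 0.86 ± 0.18 after Longan. The call after Longan was lost without that library (adjusted p = 0.0788). The vehicle had the lowest mean IGFBP1 of the 20 groups, 23.9 CPM. After Longan the mean was 43.2 CPM at the high, 35.6 CPM at the medium and 45.5 CPM at the low dose, with no rise by dose. After Zizyphi it was 62.5, 41.1 and 42.1 CPM at these doses. Whether the lower doses differed from the vehicle was not tested. A call after one extract and not after the other is no test of their difference, which is the direct comparison above.

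**Figure D5:**
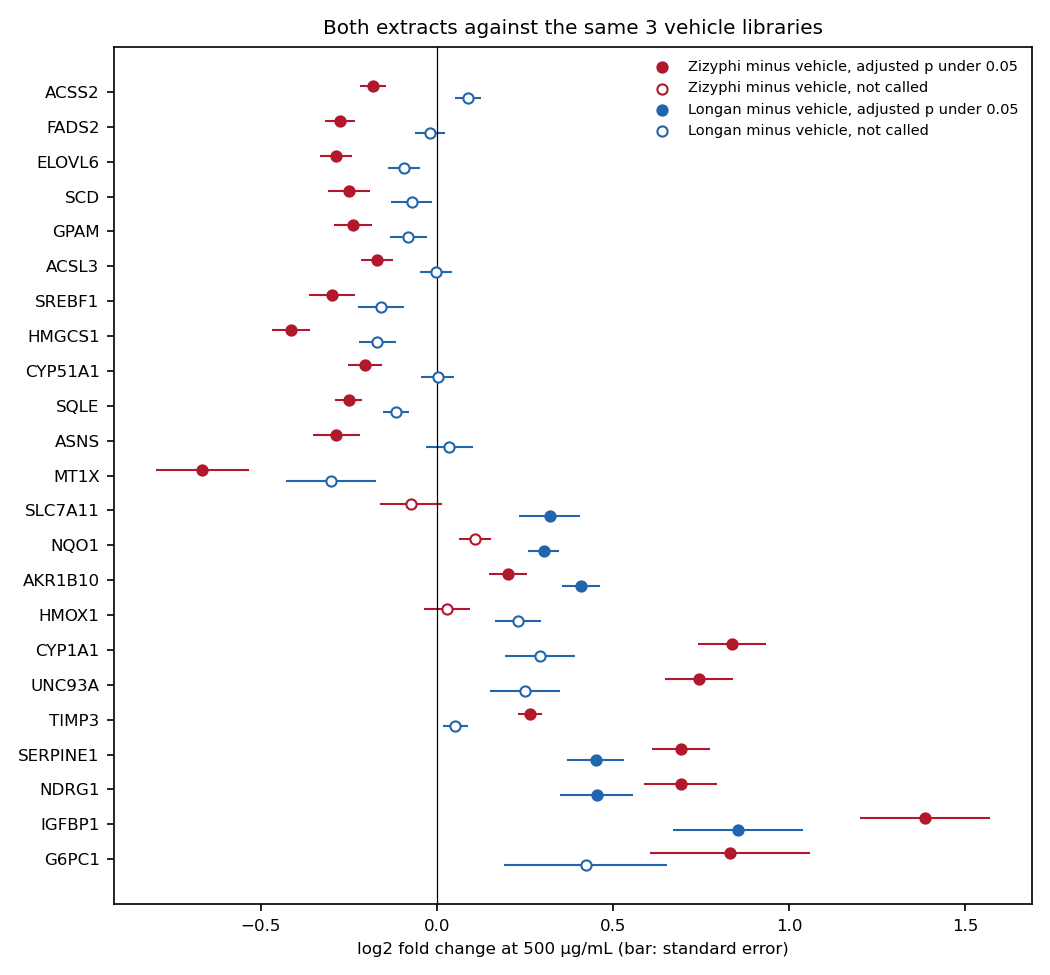
Log2 fold change (x axis; bars, standard error) of 23 genes at 500 µg/mL of Zizyphi (red) and of Longan (blue) against the same 3 vehicle libraries; filled points passed an adjusted p of 0.05. The lipid genes at the top are called after Zizyphi and not after Longan, whereas NQO1 and SLC7A11 are called after Longan and not after Zizyphi.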

How the data were processed

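RNA-seq of HepG2 cells was deposited as 1 table of expected counts, that is, estimated reads per gene that need not be whole. The authors' steps are known only in part: RSEM 1.3.3, STAR 2.7.3a, Trim Galore 0.6.5 and FastQC 0.11.9, with hg38 and GRCh38, appear in the submitters' processing notes with no role, and per the labels' protocols the libraries were strand-specific mRNA libraries. No source used here gives the annotation release, strand setting or filters, so overlapping genes, antisense genes and near-identical copies are uncertain. Of 60675 genes, 57055 had a symbol in the reference tables; coordinates are those of GENCODE 29 on GRCh38, and promoter windows are from RefSeq (GRCh38.p14).

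The deposited expected counts were rounded and filtered with filterByExpr by group (16517 genes kept; the rest held 0.0532% of counts). TMM factors ran from 0.92 to 1.08. edgeR 4.0.16 in R 4.3.3 (with limma 3.58.1) fitted a single quasi-likelihood model of the 20 groups over the 60 libraries, each contrast was tested 2-sided and adjusted by Benjamini-Hochberg over all tested genes, at 0.05. Standard errors come from the fit. The code was tested on simulated data. Same-numbered Zizyphi and Longan libraries at 500 µg/mL did not deviate together beyond 0.1 in every pair, so no pairing was used in the reported fit. In the 7 groups compared here, no 2 libraries of a group agreed within sampling noise.

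Named genes were every called gene with at least 5 CPM in either group and non-overlapping groups (up to 12 per direction). They also included up to 3 called members of each of up to 6 lists, and a fixed set of genes. Only the fatty acid, aryl hydrocarbon receptor and ATF4 lists had called members. Other members are named from 36 pathway lists. A few of these genes are not reported here. The members and lists were chosen with earlier results of these data known. Lists are described by counts and medians, with no set test. Alternatives were RLE scaling, other filters on low counts, DESeq2 1.42.0, fits on the compared groups alone, a replicate block, each library left out and a GC covariate.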

Additional observations from a re-analysis of the deposited data

How the results depend on the processing

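For Zizyphi against Longan at 500 µg/mL, 7 genes were called in the reported fit, 6 with RLE scaling, 7 with the stricter filter (1 CPM in 30 libraries), 88 with no filter (TIMP3 lost, 5 metallothioneins gained), 15 with DESeq2, 0 in a fit of the compared groups alone, and 14 with each library's GC slope as a covariate, an alternative chosen after seeing the data. With 1 library left out the count ran from 2 (without Longan replicate 2) through 4 (without Zizyphi replicate 2 or 3) to 6. The 100 µg/mL comparison had 75 calls with no filter, 2 with DESeq2, 0 in the compared groups alone and 0 to 1 with a library left out. The 20 µg/mL comparison had 85 with no filter and 0 to 0 with a library left out. The interaction had 1 with RLE scaling, 110 with no filter, 1 with the stricter filter, 3 with DESeq2, 2 with the GC covariate, and 0 to 1 with a library left out (1 without Longan replicate 2 at either the high or the low dose, or without Zizyphi low-dose replicate 3). Against the vehicle, Zizyphi had 233 calls in the compared groups alone and 191 to 687 with a library left out (191 without vehicle replicate 1, 423, 453 and 341 without Zizyphi replicates 1, 2 and 3). Longan had 505 with no filter, 21 in the compared groups alone, 477 with DESeq2, 590 with the GC covariate and 39 to 232 with a library left out (39 and 147 without vehicle replicates 1 and 2, 90, 128 and 103 without Longan replicates 1, 2 and 3). A fit with replicate number as a block called 12 genes between the extracts at 500 µg/mL, 2 in the interaction and 479 for Longan against the vehicle. Same-numbered high-dose libraries of the extracts correlated at 0.16, -0.06 and -0.04, and 1 of 3 correlated best with its own number. Zizyphi libraries at 500 and 20 µg/mL correlated at 0.12, 0.25 and 0.09, with 3 of 3 best with their own number. Whether the numbers pair libraries was not settled. No called gene changed direction; of genes not called in the reported fit, CDKN1A turned to -0.013 with the GC covariate and ran from -0.037 to 0.061 with a library left out (-0.015 without Longan replicate 1), and ALB ran from -0.093 to 0.10 (-0.028 and -0.030 without Longan replicates 1 and 2). The cause of these shifts was not tested. With 3 libraries per group, a median standard error of 0.10 on the log2 scale limits what could be called.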

Other observations

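Some genes outside the lists came close to the threshold between the extracts at 500 µg/mL; they were chosen after their values were seen. NEDD9, a scaffold protein of focal adhesions, averaged 128 CPM after Zizyphi and 110 CPM after Longan (log2 fold change 0.23 ± 0.05, edgeR adjusted p = 0.0639). ACTA1, skeletal muscle actin, averaged 21.8 CPM after Zizyphi and 17.3 CPM after Longan (0.34 ± 0.08, adjusted p = 0.0748), and CLDN6, a tight junction protein, 14.2 CPM after Zizyphi and 11.4 CPM after Longan (0.32 ± 0.07, adjusted p = 0.0887). LPCAT2, a phospholipid acyltransferase, averaged 14.4 CPM after Zizyphi and 17.7 CPM after Longan (-0.29 ± 0.07, adjusted p = 0.0760), and CXXC5, a zinc finger protein, 47.8 CPM after Zizyphi and 54.7 CPM after Longan (-0.19 ± 0.04, adjusted p = 0.0789).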
